A study of Homo sapiens and Mus musculus with 10 samples.

Results

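Kidney development regulators are described here as a set of 8 genes, LHX1, SIX2, EYA1, SALL1, OSR1, WT1, EMX2 and CITED1, out of 19970 protein-coding genes in the GENCODE release 44 annotation of the human genome. The rule that finds them uses their names and no measured value, although the set was proposed with earlier results of these data known. For each gene, the deposited lists of accessible regions (peaks) were searched within 1 kb of any annotated start site, called the promoter, and within 100 kb of the gene body. A promoter was called in a cell line when both replicate libraries of that line listed a peak there.

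The study profiled open chromatin by short-read bulk ATAC-seq, in which the Tn5 transposase inserts adapters where DNA is not packed into nucleosomes. The series holds 10 libraries, 2 replicates of each of 5 cell lines, with no treatment. The 8 human libraries come from HEK293T, a line of embryonic kidney origin with the large T antigen of SV40 added; HFF1, fibroblasts of foreskin; GM12878, a B-lymphoblastoid line made by Epstein-Barr virus transformation; and K562, a line from a chronic myelogenous leukaemia with erythroid features. HEK293T and HFF1 grow attached and were kept in DMEM, and GM12878 and K562 grow in suspension and were kept in RPMI-1640. All libraries were made from thawed cells, and the labels do not say whether the replicates of a line came from separate cultures, so their spread may be technical.

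The mammalian kidney arises from intermediate mesoderm, where OSR1 and LHX1 mark the early field. A cap of nephron progenitors then forms around the branching ureteric bud; the progenitors depend on SIX2, EYA1, SALL1 and WT1 and express CITED1, while EMX2 acts in the ureteric bud. All 8 are transcription factors or co-activators of transcription, and several act in other organs: WT1 in the gonad and heart, EMX2 in the forebrain, and EYA1 in the ear and branchial arches. An ATAC-seq peak shows that a stretch of DNA was open in enough of the cells to be detected, and does not measure transcription. In bulk libraries, fewer cells with an open site and less opening per cell cannot be told apart.

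The libraries differed in depth, which bears on every count of peaks. The HEK293T lists were the shortest, with 52438 and 52137 peaks on the autosomes and chromosome X, against 71241 to 127359 in the other 6. The genome-wide background level recovered from the lists, a measure of read depth, was 0.465 and 0.466 reads in HEK293T against 1.71 to 2.43 in HFF1, GM12878 and K562. The median peak summit rested on 16 reads in each HEK293T library and on 30 to 35 reads elsewhere. Between 79.5% and 89.4% of a library's peaks were found again in its replicate. The line labels were checked with marker genes: promoters of 5 of 5 B-cell markers were called in GM12878, with CD79A, CD79B and MS4A1 in no other line, 4 of 5 erythroid markers in K562, with KLF1 absent, and 5 of 5 fibroblast markers in HFF1, with COL3A1 in no other line. All 5 HEK293T markers, which were chosen with earlier results of these data known, were called in HEK293T, with PAX2 in no other line.

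Promoters of the regulators were called mostly in the 2 adherent lines. In HEK293T, 7 of 8 were called (87.5%, against 67.8% of all protein-coding genes), with OSR1 listed in replicate 2 only. In HFF1, 7 of 8 were called (76.2% of all genes), with LHX1 missing. In GM12878, 3 of 8 were called (71.9% of all genes), namely EYA1, WT1 and CITED1. In K562, 3 of 8 were called (70.4% of all genes), namely SIX2, WT1 and CITED1. The counts in HEK293T and HFF1 were near the shares over all genes, given 8 genes, and those in GM12878 and K562 were below them. With 2 libraries a line, an exact two-sided permutation test between 2 lines cannot go below p = 0.333, so these differences were not tested gene by gene. Another rule, chosen after seeing the data, counted only peaks near the start of the Ensembl canonical transcript. It left 7, 5, 1 and 2 of 8 in HEK293T, HFF1, GM12878 and K562. The shares of all genes were 62.9%, 71.5%, 66.3% and 64.7%. CITED1 left the calls of HFF1, GM12878 and K562 under this rule, although every library listed its peak, which ends near the 1 kb limit. When each list was reduced to its 20000 peaks of highest −log10 p, 5, 2, 0 and 1 of 8 were called, against 49%, 46.8%, 49.6% and 54.9% of all genes.

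The regulators fell into 4 patterns across lines. LHX1 was the 1 gene of the 8 with a promoter peak in both HEK293T libraries and in no other human library, which held for 0.336% of all genes (67 genes). SALL1 was the 1 gene called in HEK293T and HFF1 and listed in no GM12878 or K562 library, which held for 1.23% of all genes (246 genes). WT1 and CITED1 were listed in all 8 human libraries, as were 59.7% of all genes. SIX2, EYA1, OSR1 and EMX2 were listed in 3 to 6 of the 8 libraries in other combinations. The LHX1 call did not outlast lists of 20000 peaks, where SALL1, EMX2 and CITED1 were the regulators found in HEK293T alone (2.93% of all genes), and scaling the libraries to the HEK293T background level added EMX2 beside LHX1 (1.28% of all genes).

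**Figure D1:**
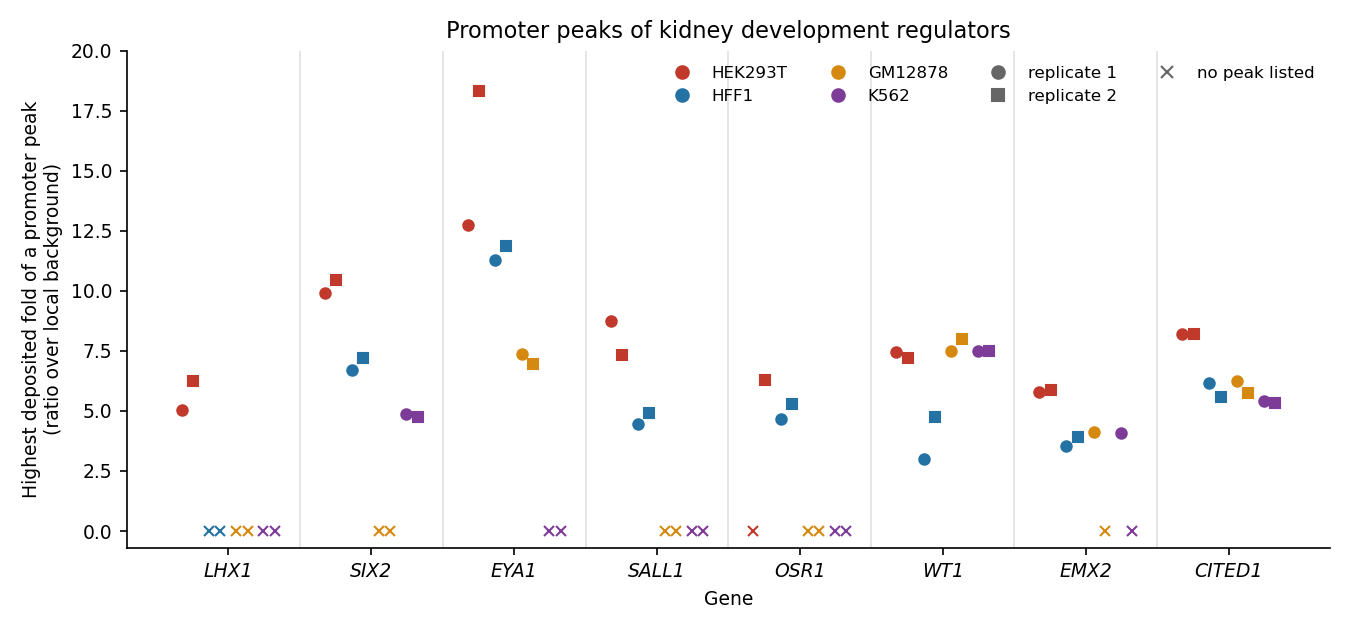
Highest deposited fold of a promoter peak (vertical axis, summit height as a ratio over local background) for each of the 8 genes (horizontal axis), with 1 point per library; colours are cell lines, circles and squares are replicates, and crosses mark libraries that list no promoter peak. LHX1 has points in HEK293T alone, SALL1 in HEK293T and HFF1, and CITED1 in all 8 libraries; heights are not scaled between libraries.

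LHX1, a LIM-homeodomain factor of the intermediate mesoderm, the nephric duct and the renal vesicle, spans chr17:36936785-36944612 on the plus strand of hg38 and has 6 start sites. The deposited folds, which are the authors' and are comparable only within a list, were 5.05 in HEK293T replicate 1 and 6.24 and 4.77 for 2 separate peaks in replicate 2. Both replicates shared a region of 294 bp at chr17:36936694-36936987, with summits 25 bp before and 88 bp after the first start site. These summits rested on 13 and 12 reads, which placed them above 10.1% and 5.31% of the peaks of their own lists by −log10 p, and the other replicate 2 peak, on 16 reads, stood above 31.4%. The gene call, which may rest on different peaks in the 2 replicates, was kept when −log10 q had to be 5 or more. Under that setting the regions near the regulators found in HEK293T alone fell from 4 to 3 (7.89%, against 10.4% of all HEK293T regions). The kept gene call therefore does not show that the shared region was kept. None of the 6 other human libraries, all deeper, listed an LHX1 promoter peak.

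The 67 protein-coding genes with a promoter peak in HEK293T alone were ranked by the lower of the 2 replicates' highest promoter folds. This measure mixes the 2 HEK293T lists, and LHX1 stood low by it. For LHX1 the highest folds, 5.05 and 6.24, belong to different peaks, and the lower fold in the shared region was 4.77. The LHX1 value of 5.05 compared with a median of 7.51 and a range of 3.72 to 15.8, and 5.97% of the 67 genes lay below it. The 5 genes closest to it by this lower fold were NEUROD1 (5.13) and SOX3 (5.23), both transcription factors of neural development, IL17F (5.15), a cytokine, CRMP1 (4.96), a neuronal cytoskeletal protein, and DDC (5.31), the aromatic amino acid decarboxylase. The call of LHX1 in HEK293T alone ended when the promoter was widened to 2 kb, because K562 then had a peak in both replicates at chr17:36934775-36935019, 2.6 kb before the canonical start and inside the divergent lncRNA LHX1-DT. The deposited folds there were 6.38 and 5.28 in K562 and 5.39 in HEK293T replicate 1, while HEK293T replicate 2 listed none.

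OSR1, a zinc finger factor that is among the earliest markers of intermediate mesoderm, spans chr2:19351485-19358623 on the minus strand and has 2 start sites. In HFF1, both replicates listed a peak at the first start (folds 4.68 and 5.31, 53 and 52 reads) and another further inside the gene (3.92 and 4.47, 36 and 37 reads). HEK293T replicate 2 listed a peak at the first start with a fold of 6.29 on 17 reads, and replicate 1 listed none. No GM12878 or K562 library listed a promoter peak. Of the 4 lines, HFF1 was thus the line with a replicated OSR1 promoter.

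EYA1, a phosphatase and co-activator that works with SIX2, spans chr8:71197433-71592025 on the minus strand and has 24 start sites spread over much of its length. At the canonical start, HEK293T gave folds of 12.7 and 18.3 (40 and 58 reads), HFF1 gave 11.3 and 11.9 (70 and 66 reads), and GM12878 gave 7.37 and 6.95 (19 and 18 reads). The peak of HEK293T replicate 2 lay above 98.2% of its list by −log10 p and that of replicate 1 above 89.2%, where SALL1 replicate 1 stood above 89.9%. K562 listed no peak within 1 kb of any of the 24 start sites. A further start site 5.3 kb inside the gene carried a peak in both HEK293T libraries (folds 8.45 and 12.3, 20 and 28 reads) and in no other human library. The upstream start group, 186 kb before the canonical start, carried a peak in both HFF1 libraries (7.39 and 8.93, 34 and 35 reads) and in no other. HEK293T and HFF1 therefore shared the canonical start and differed at the other 2 places.

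SALL1, a zinc finger repressor required for the ureteric bud to invade the mesenchyme, spans chr16:51135982-51152334 on the minus strand and has 6 start sites. The peaks were broad: 1218 and 1204 bp in HEK293T, with folds of 8.75 and 7.34 on 57 and 45 reads, and 1371 and 1075 bp in HFF1, with folds of 4.47 and 4.90 on 96 and 91 reads. The 4 summits lay 43 to 142 bp before the first start site and 1107 to 1206 bp before the canonical one, within reach of the start of a divergent lncRNA, ENSG00000285367. Both GM12878 and both K562 libraries listed no SALL1 promoter peak. HEK293T and HFF1 did not overlap with the blood lines in this respect.

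SIX2, the homeodomain factor that holds nephron progenitors in a self-renewing state, spans chr2:45005182-45009452 on the minus strand and has 1 start site. Its promoter gave folds of 9.92 and 10.4 in HEK293T (47 and 45 reads), 6.71 and 7.20 in HFF1 (108 and 100 reads) and 4.89 and 4.75 in K562 (21 and 19 reads), and no peak in GM12878. The K562 peaks were 187 and 160 bp wide, against 687 and 930 bp in HEK293T and 1356 and 1313 bp in HFF1. Within their own lists the K562 peaks stood above 25.9% and 18.2% of peaks, while those of HEK293T and HFF1 stood above 88.0% to 92.3%. All 6 summits lay 108 to 203 bp before the start site. The 250 bases before it, at chr2:45009453-45009702 of GRCh38.p14 (RefSeq promoter table), are printed because they hold those 6 summits; the strand is the minus strand and capitals mark the words GGGCGG (SP/KLF factors) and CCAAT (NFY), searched on both strands.
SIX2 promoter: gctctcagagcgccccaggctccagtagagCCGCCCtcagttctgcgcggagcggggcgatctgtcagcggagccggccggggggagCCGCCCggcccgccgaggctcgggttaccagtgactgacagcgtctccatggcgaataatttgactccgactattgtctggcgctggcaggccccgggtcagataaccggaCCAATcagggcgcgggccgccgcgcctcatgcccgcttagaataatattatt
The window holds GGGCGG at 2 places and CCAAT at 1, and the 300 bases that include the first 50 transcribed bases hold no further match. These words are present in 45.0% and 34.6% of the 35116 promoters of the table, whose windows are 300 bases long. With the first 50 transcribed bases the GC content of the SIX2 window was 64.0% and its CpG ratio (observed over expected) 0.949, against medians of 58.7% and 0.579 over all promoters.

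WT1, a zinc finger factor of nephron progenitors and podocytes, spans chr11:32387775-32435564 on the minus strand and has 21 start sites. It was called in every line, but not at the same place. HEK293T and K562 listed the 5′ end: at the first start the folds were 7.46 and 6.36 in HEK293T (19 and 17 reads) and 7.50 and 7.49 in K562 (110 and 99 reads), with another peak about 0.9 kb inside the gene (7.42 and 7.19 in HEK293T, 5.44 and 4.32 in K562). GM12878 listed no peak at the 5′ end and had its replicated peak 39.0 kb inside the gene, near internal start sites (7.50 and 8.00, 21 and 22 reads). In HFF1 the replicates did not coincide: replicate 1 had a fold of 3.00 at 1568 bp and replicate 2 a fold of 4.75 at 7347 bp inside the gene. Requiring both replicates in the same region, a rule chosen after seeing the data, took WT1 out of the HFF1 calls and left 6 of 8 there.

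The 5′ promoter of WT1 stood higher in the K562 lists than any other regulator promoter, above 91.7% and 90.2% of K562 peaks, while in HEK293T it stood above 49.6% and 36.0%. The 225 bases before the first start site, chr11:32435565-32435789 of GRCh38.p14 on the minus strand, are printed because they hold the HEK293T and K562 summits of that start and none of the other lines; capitals mark the SP/KLF word.
WT1 promoter: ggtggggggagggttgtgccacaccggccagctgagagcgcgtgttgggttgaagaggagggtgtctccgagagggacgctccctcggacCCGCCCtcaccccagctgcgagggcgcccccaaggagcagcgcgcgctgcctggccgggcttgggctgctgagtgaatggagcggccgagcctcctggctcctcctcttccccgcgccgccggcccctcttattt
The word GGGCGG occurs at 1 place in it, and the words TATAAA (the word of the TATA box), CCAAT (NFY), TAATTA (homeodomain), GGAATG (TEAD), GCGTGGG (WT1 and EGR factors), GTCACGC (paired domain), GGTATCA (SIX2), CAGTAGC (odd-skipped factors), TGAGTCA (AP-1) and the CTCF core, do not. Over all promoters these words are present in shares between 1% (CTCF core) and 34.6% (CCAAT), with 11.5% for the TATA box, 14% for TEAD, 6.98% for WT1 and EGR, 4.95% for AP-1, 4.84% for the homeodomain word, 2.93% for the odd-skipped word, 2.52% for the paired domain and 1.20% for the SIX2 word. These shares are over windows of 300 bases. The WT1 window of 300 bases that includes the printed stretch also holds GGGCGG at 1 place and none of the other words named. Absence says only that these letters are not in this window. The antisense lncRNA WT1-AS and 2 short RNAs start near the same place, so the peak cannot be given to 1 strand.

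EMX2, a homeodomain factor needed for the ureteric bud, spans chr10:117542445-117549546 on the plus strand and has 4 start sites. HEK293T listed 3 promoter peaks in each replicate, the strongest with folds of 5.78 and 5.86 on 38 reads each. HFF1 gave 3.56 and 3.94 at the same place (38 and 36 reads). GM12878 replicate 1 (4.13, 24 reads) and K562 replicate 1 (4.09, 17 reads) also listed it, and their second replicates did not. At the third start, 0.8 kb further, HEK293T listed a peak in both replicates (4.12 and 3.89) and HFF1 in replicate 1 (2.93). By −log10 p the strongest EMX2 peak stood above 64.3% and 65.3% of HEK293T peaks, 27.2% and 33.2% of HFF1 peaks, 15.4% in GM12878 and 8.71% in K562. The divergent lncRNA EMX2OS starts in the same window.

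CITED1, a co-activator that marks the least differentiated nephron progenitors, spans chrX:72301638-72307187 on the minus strand and has 9 start sites. Every human library listed the same promoter peak: folds were 8.19 in both HEK293T libraries (26 and 25 reads), 6.18 and 5.59 in HFF1, 6.26 and 5.73 in GM12878, and 5.41 and 5.32 in K562. All 8 summits of this peak fell between positions 72306976 and 72307091, about 1.1 kb before the canonical start and close to 2 annotated alternative starts. GM12878 replicate 2 alone listed a second peak near the canonical start (3.83, 15 reads). The rule with canonical starts called CITED1 in HEK293T but not in both replicates of any other line. Counted from the canonical start, the near edge of the shared peak lay at -986 and -738 bp in HEK293T. In the other libraries it lay between -1049 and -994 bp. The 1 kb limit thus fell at the edge of a peak that every library listed.

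**Figure D2:**
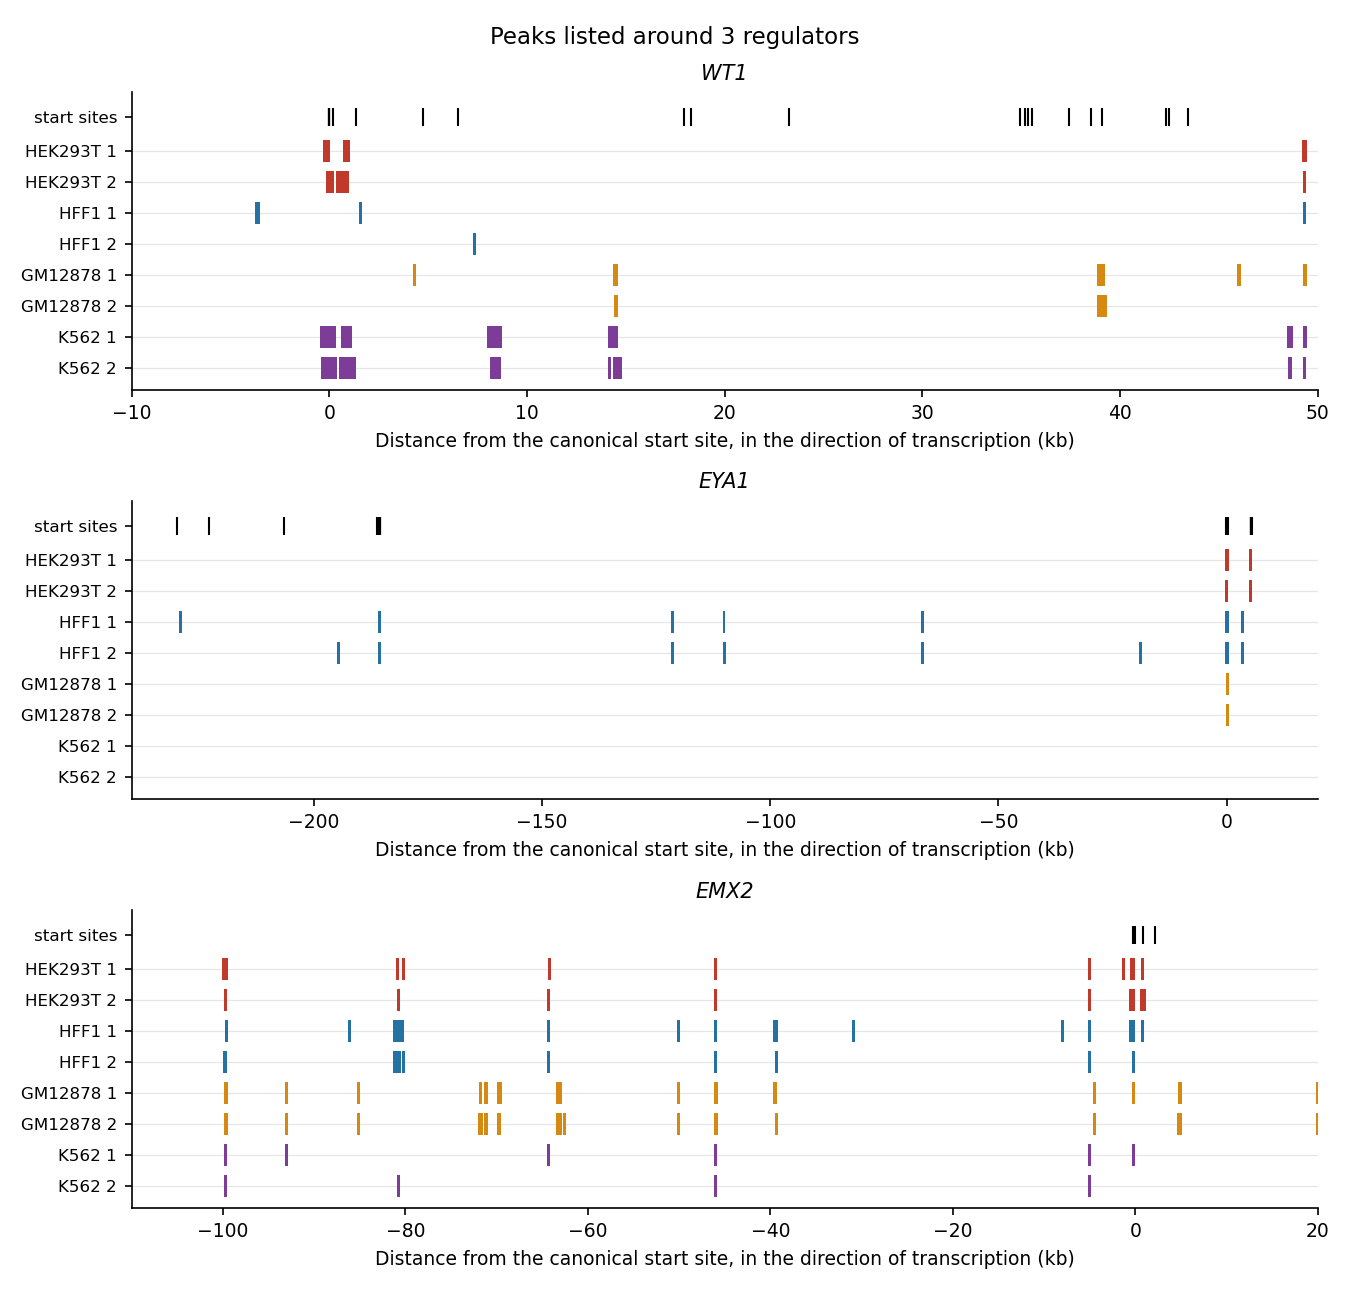
Peaks (bars) listed around WT1, EYA1 and EMX2, with 1 row per library and colours by cell line; the horizontal axis is the distance from the canonical start in kb, in the direction of transcription, and black ticks mark annotated start sites. Bars narrower than the drawing limit are widened to remain visible. At WT1 the 5′ end carries bars in HEK293T and K562, and GM12878 has bars near 39.0 kb; at EYA1 HFF1 alone has bars at the upstream start group.

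Around the genes, 204 merged regions lay within 100 kb of the 8 gene bodies, of which 69 were called in no line because no line had them in both replicates. Regions called numbered 39 in HEK293T, 75 in HFF1, 60 in GM12878 and 41 in K562. Of the 39 HEK293T regions, 4 had no peak in any library of another human line (10.3%, against 10.8% of all HEK293T regions). The corresponding counts were 43 of 75 in HFF1 (57.3%, against 50.5%), 24 of 60 in GM12878 (40.0%, against 40.6%) and 11 of 41 in K562 (26.8%, against 25.4%). The surroundings of these kidney genes were thus close to the genome-wide share in each line, and HEK293T, the line of kidney origin, had the smallest share of regions of its own. HEK293T was also the shallowest line, and the part of depth in its small share was not tested. Scaling all libraries to the HEK293T background level gave 7 of 39 in HEK293T alone (17.9%, against 17.2% of all HEK293T regions), and leaving out HEK293T replicate 1 gave 11 of 52 (21.2%, against 15.7%).

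The HEK293T regions were shared about equally with the other 3 lines. Of the 39, 22 were also called in HFF1 (56.4%, against 67% of all HEK293T regions), 24 in GM12878 (61.5%, against 70.2%) and 24 in K562 (61.5%, against 68.5%). In all 4 lines, 13 were called (33.3%, against 51.6%). The 13 include the promoters of AATF, 11.6 kb from the LHX1 start, and of RPS4X and ERCC6L near CITED1, and CITED1 was the regulator whose own promoter was among them.

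The genes differed from each other in which line had most regions. HFF1 had most around SIX2 (20, with 11 found in HFF1 alone), EYA1 (11, with 10 alone), SALL1 (8, with 7 alone), OSR1 (9, with 5 alone) and CITED1 (10, with 4 alone). K562 had most around WT1 (14, with 6 alone), where HFF1 had 3, and around LHX1 (5, with 1 alone). GM12878 had most around EMX2 (17, with 11 alone), where HEK293T had 7 and K562 had 3. HEK293T had most around none of the 8. Over all regions, HEK293T also had the fewest called, 40173, against 102322 in HFF1, 88175 in GM12878 and 60335 in K562. The share of all genes with most regions in each line is not given here, and the part of depth in these rankings was not tested. Around SALL1 the HEK293T libraries had a single region, the promoter, while HFF1 had another 7 that no other line listed, from 58.3 kb before to 31.5 kb after the canonical start.

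**Figure D3:**
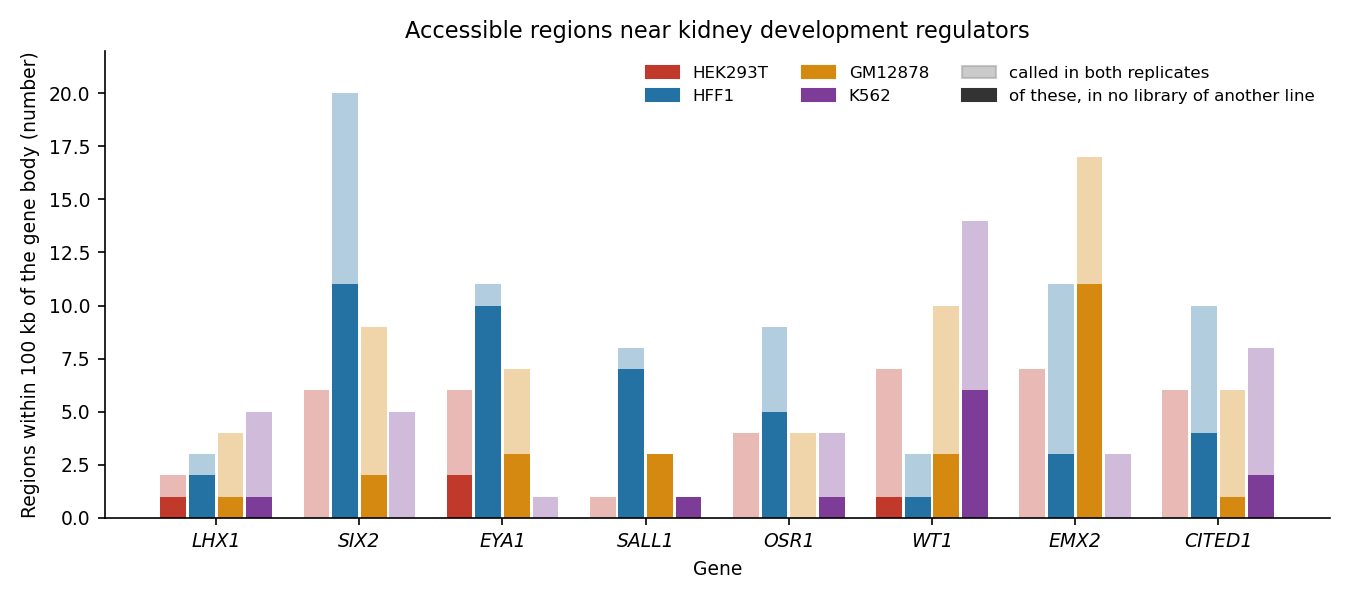
Number of regions within 100 kb of each gene body (vertical axis) that were called in both replicates of a line (pale bars) and, among these, that no library of another line listed (dark bars), for the 8 genes (horizontal axis). Dark HEK293T bars occur at LHX1, EYA1 and WT1, and the tallest bar is HFF1 at SIX2 with 20 regions.

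The 4 regions found in HEK293T alone were the LHX1 promoter, the internal EYA1 start, an EYA1 intron and an intergenic site beyond WT1. The EYA1 intron site, 129.8 kb inside the gene, gave folds of 10.5 and 9.74 on 15 and 14 reads. The WT1 site, chr11:32358760-32359134, lay 76.6 kb after the canonical start, outside the gene, and gave folds of 8.28 and 7.64 on 13 and 11 reads. Apart from the EYA1 start, these sites rested on 11 to 15 reads a replicate, below the median of 16 for a HEK293T peak. At SIX2 no region was found in HEK293T alone; a site 35.2 kb beyond the start was called in HEK293T and in no other line but was listed by HFF1 replicate 1 and K562 replicate 2.

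Of the 27 HEK293T regions away from promoters of protein-coding genes, 10 were called in a blood line and not in HFF1. These 10 were 4 at WT1, 3 at EYA1, 2 at OSR1 and 1 at CITED1. Some of them were listed by HFF1 replicate 1 and not by replicate 2. These were the EYA1 site 25.8 kb after the canonical start (fold 4.37), the OSR1 site 45.5 kb after it (5.83) and the WT1 site 49.3 kb after it (4.22). Another 9 were called in all 4 lines, as were 9529 of all 25673 such HEK293T regions. For the other classes the shares over all such regions were not computed, so their counts have no background beside them. Of the rest, 3 were called in HFF1 and 1 blood line, 3 in no other line, and 2 in HFF1 and no blood line. Both of the last kind lay at EMX2. EMX2 had these 2 sites inside its lncRNA neighbours, 80.7 kb and 64.3 kb before the start, called in HEK293T (folds 9.14 and 10.6, and 6.98 and 8.00) and in HFF1 (10.9 and 11.3, and 6.11 and 7.95); K562 listed each in 1 replicate and GM12878 in none. OSR1, whose promoter had no peak in the blood lines, had flanking sites called in all 4 lines, 4.5 kb before its start (HEK293T folds 11.3 and 8.39) and 10.6 kb after it (11.5 and 12.5). SIX2 had a site 4.8 kb before its start in all 4 lines, GM12878 included (7.06 and 7.71), although GM12878 listed no peak at the SIX2 promoter.

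Of the 39 HEK293T regions, 12 lie at a promoter of a protein-coding gene and 27 are distal. The 101 bases around the HEK293T replicate 1 summit were read from hg38 for distal regions and searched, on both strands, for the same words as the promoters. The following windows, on the plus strand, are shown because they are the WT1 site found in HEK293T alone, the upstream OSR1 and SIX2 sites called in all 4 lines, the 2 EMX2 sites shared with HFF1, and 2 of the 4 windows with a CTCF core; capitals mark matches. They are chr11:32359015-32359115 (WT1, 76.6 kb after), chr2:19363049-19363149 (OSR1, 4.5 kb before), chr2:45014215-45014315 (SIX2, 4.8 kb before), chr10:117461890-117461990 and chr10:117478473-117478573 (EMX2, 80.7 and 64.3 kb before), chr2:19350250-19350350 (OSR1, 8.2 kb after, called in HEK293T, GM12878 and K562) and chr10:117443062-117443162 (EMX2, 99.7 kb before).
WT1 site in HEK293T alone: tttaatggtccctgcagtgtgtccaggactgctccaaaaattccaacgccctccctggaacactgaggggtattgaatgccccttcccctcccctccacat
OSR1 upstream site: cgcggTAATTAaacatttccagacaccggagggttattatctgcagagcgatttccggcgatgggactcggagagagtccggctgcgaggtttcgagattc
SIX2 upstream site: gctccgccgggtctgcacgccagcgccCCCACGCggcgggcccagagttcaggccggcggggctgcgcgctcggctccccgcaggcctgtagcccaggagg
EMX2 first shared site: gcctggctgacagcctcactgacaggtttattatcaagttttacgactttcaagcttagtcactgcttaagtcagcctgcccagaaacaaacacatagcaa
EMX2 second shared site: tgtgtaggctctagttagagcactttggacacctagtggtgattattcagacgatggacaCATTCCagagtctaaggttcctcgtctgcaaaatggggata
OSR1 site 8.2 kb after: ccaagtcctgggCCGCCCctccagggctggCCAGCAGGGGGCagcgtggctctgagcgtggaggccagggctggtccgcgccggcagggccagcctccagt
EMX2 far site: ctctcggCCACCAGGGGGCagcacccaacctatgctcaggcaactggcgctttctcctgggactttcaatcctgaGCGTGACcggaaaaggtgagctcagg
The WT1 site and the first EMX2 site hold none of the words. The second EMX2 site holds the TEAD word, the OSR1 upstream site the homeodomain word, and the SIX2 upstream site the WT1 and EGR word. The OSR1 site 8.2 kb after the start and the EMX2 far site hold the CTCF core, the second with the paired-domain word as well, and the OSR1 site also holds GGGCGG.

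As a set the distal windows of the regulators were close to other HEK293T distal windows. The CTCF core was present in 4 of 27 (14.8%, against 15.6% of 25673 distal HEK293T windows), CCAAT in 3 (11.1%, against 11.6%), GGGCGG in 3 (11.1%, against 9.03%), the TEAD word in 2 (7.41%, against 6.27%) and the AP-1 word in 2 (7.41%, against 3.80%). The homeodomain, WT1 and EGR, and paired-domain words were each present in 1 (3.70%), against 0.834%, 0.943% and 0.569%. The TATA box and the SIX2 and odd-skipped words were present in none of the 27, and in 2.65%, 0.440% and 1.71% of all distal HEK293T windows. These shares rest on 27 windows and were not tested.

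The number of peaks within 100 kb of a gene was then compared between the lines over all 19970 genes, with an exact one-sided permutation test of eta squared (the share of variance that lies between lines) and Benjamini-Hochberg adjustment. The median gene had 8 and 7 peaks in HEK293T, 17 in each HFF1 library, 15 in each GM12878 library and 13 and 12 in K562. Of the regulators, 3 of 8 differed between lines at an adjusted p under 0.05 (EYA1, SALL1 and EMX2), against 63.7% of all genes.

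EYA1 had 6 and 7 peaks in HEK293T, 15 in each HFF1 library, 8 and 7 in GM12878, and 2 and 1 in K562. HFF1 lay above the other 6 libraries and K562 below them (permutation test, p = 0.019, adjusted p = 0.0449). SALL1 had 1 peak in each HEK293T and K562 library, 11 and 10 in HFF1, and 4 and 3 in GM12878 (permutation test, p = 0.0286, adjusted p = 0.0449). EMX2 had 10 and 9 in HEK293T, 17 and 13 in HFF1, 19 in each GM12878 library, and 6 and 4 in K562, with no overlap between any 2 lines (permutation test, p = 0.00952, the smallest that the pairings of 8 libraries can give, adjusted p = 0.0365). Scaling the libraries to the HEK293T background level changed the order of lines for EYA1 and EMX2. EYA1 then had 6 and 7 peaks in HEK293T, 5 and 4 in HFF1, 6 in each GM12878 library, and 1 and 0 in K562. EMX2 had 10 and 9, 6 and 8, 11 and 15, and 3 in each K562 library, in the same order of lines. For SALL1, HFF1 stayed highest, with 3 and 4.

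The other 5 missed the threshold. WT1 had 8 and 11 in HEK293T, 9 and 4 in HFF1, 13 and 12 in GM12878, and 17 in each K562 library (permutation test, adjusted p = 0.0568). SIX2 had 8 and 9, 24 in each HFF1 library, 11 and 9 in GM12878, and 8 in each K562 library (permutation test, adjusted p = 0.0756). CITED1 had 6 and 7, 11 and 12, 6 and 8, and 10 and 8, in the same order of lines (permutation test, adjusted p = 0.0851). OSR1 had 4 and 6, 11 and 10, 4 and 5, and 5 and 4 (permutation test, adjusted p = 0.152), and LHX1 had 4 and 3, 8 and 4, 5 in each GM12878 library, and 5 and 6 (permutation test, adjusted p = 0.581). In this permutation test a gene with 1 line apart and the other 3 alike reaches p = 0.143, as OSR1 did with HFF1 apart, so a miss does not show that the lines were alike.

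In order of level, HFF1 had more peaks than each of the other 6 libraries for 5 of 8 genes (SIX2, EYA1, SALL1, OSR1 and CITED1), which held for 34.9% of all genes. After scaling to the HEK293T background level, the same held for SIX2, SALL1, OSR1 and CITED1 and no longer for EYA1. The share of all genes after scaling is not given here. HEK293T had fewer than each of the others for 0 of 8, which held for 61% of all genes, and more than each of the others for 0 of 8, which held for 0.891% of all genes. Around SALL1, HEK293T tied with K562 at 1 peak, and around the other 7 at least 1 library of another line had as few or fewer peaks than a HEK293T library. Set against other genes of the same list, EMX2 had more peaks than 66.1% and 59.0% of genes in HEK293T, WT1 more than 49.7% and 73.1%, and SALL1 more than 2.26% and 2.16%. No regulator kept its call when the distance was 50 kb, when each list was reduced to its 20000 peaks of highest −log10 p, or when all libraries were scaled to the HEK293T background level, settings under which 0 of all genes passed in each case. Leaving out any 1 of the 8 libraries left 0 to 2 calls, while the share of all genes that passed fell from 63.7% to between 19.4% and 23.6%.

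**Figure D4:**
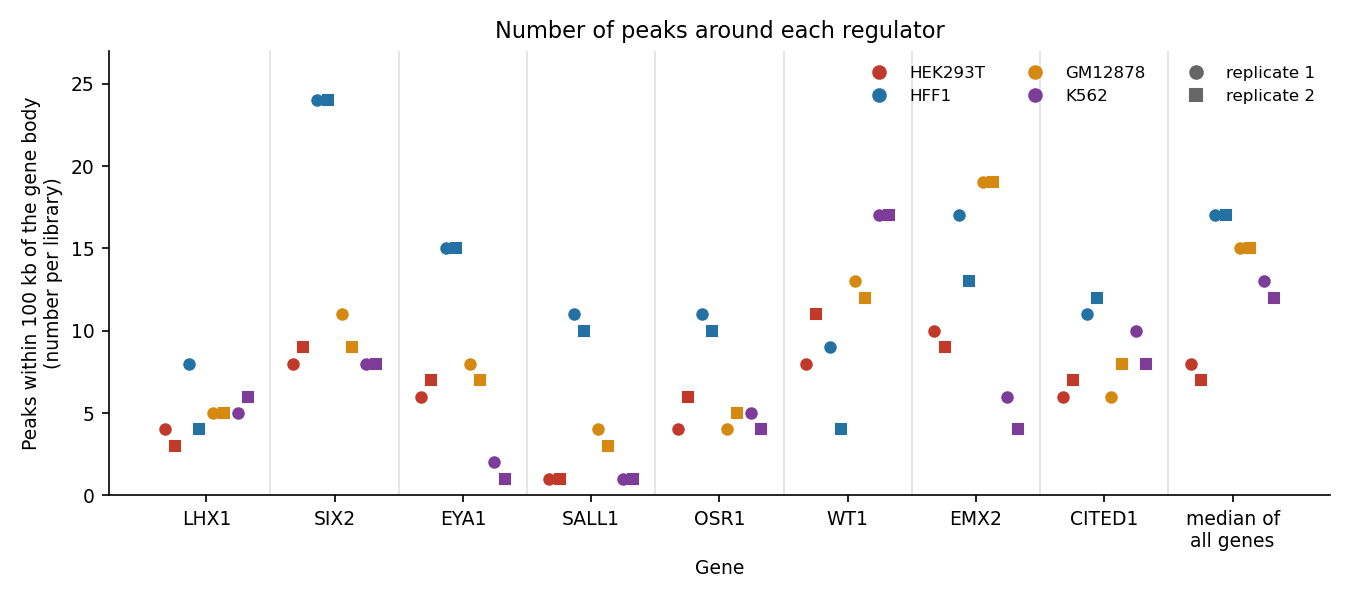
Number of peaks within 100 kb of the gene body (vertical axis) in each of the 8 human libraries for the 8 genes and for the median protein-coding gene (horizontal axis); colours are lines and the 2 symbols are replicates. HFF1 lies highest at SIX2 (24 in both libraries), K562 at WT1 (17) and GM12878 at EMX2 (19), while the median gene has its lowest numbers in HEK293T.

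The genes that act with the regulators in nephrogenesis were read in the same way, over 65 genes in 6 lists. In HEK293T, 42 of 65 promoters were called (64.6%, against 67.8% of all genes), in HFF1 53 (81.5%, against 76.2%), in GM12878 36 (55.4%, against 71.9%) and in K562 37 (56.9%, against 70.4%). PAX2, a paired-domain factor of the intermediate mesoderm and ureteric bud, was the 1 gene of the 65 with a promoter peak in HEK293T alone (0.336% of all genes); its folds were 7.66 and 7.01 on 27 and 28 reads. A promoter window of 2 kb left 0 of the 65 in HEK293T alone (0.29% of all genes), lists of 20000 peaks gave 9 (2.93%), and scaling gave 5 (1.28%). LRP2, which encodes the endocytic receptor megalin of the proximal tubule, was called in HEK293T (6.39 and 7.80) and listed elsewhere by K562 replicate 2 only, so that leaving out that library gave 2 genes in HEK293T alone (0.371% of all genes).

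A larger group followed the pattern of SALL1. In HEK293T and HFF1, and in no blood library, 8 of the 65 promoters were called (1.23% of all genes); they are named after their values were seen. They were the growth factor GDNF (folds 9.62 and 9.36 in HEK293T, 5.02 and 4.96 in HFF1) and its co-receptor GFRA1 (6.27 and 6.63, 5.24 and 5.14), the ligand FGF20 (10.9 and 9.49, 7.13 and 6.75), the homeodomain factors HOXD11 (5.70 and 5.93, 5.22 and 5.07), IRX3 (8.08 and 10.5, 6.77 and 6.15) and POU3F3 (6.29 and 7.32, 4.79 and 4.83), the cadherin CDH6 (10.1 in each, 8.53 and 7.22) and the EYA1 paralogue EYA4 (7.69 and 6.70, 4.42 and 4.91).

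The counts by role are given beside 67.8%, 76.2%, 71.9% and 70.4% of all genes in HEK293T, HFF1, GM12878 and K562, and differences between the lists were not tested. Of 13 ligands, receptors and antagonists, 11 were called in HEK293T, 13 in HFF1, 5 in GM12878 and 9 in K562; RET, the GDNF receptor, and WNT4 were called in all 4 lines. Of 13 mesenchymal and Hox or Pax partners, 8, 11, 9 and 7 were called in the same order; PAX8 was called in every line but HEK293T, and HOXA11 was listed by 1 HEK293T replicate. Of 6 duct and ureteric bud factors, 4, 6, 6 and 5 were called, with GATA3 in every line. Of 9 factors of nephron segments, 6, 7, 4 and 4 were called, and HNF4A, a factor of the proximal tubule, was listed in no library. Of 12 genes of the differentiated nephron, 6, 7, 4 and 5 were called, and 4 of them, CUBN, UMOD, AQP2 and CDH16, were listed in no library. Of 13 paralogues of the regulators, 8, 10, 9 and 8 were called; SIX3, the neighbour of SIX2, was called in GM12878 alone.

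**Figure D5:**
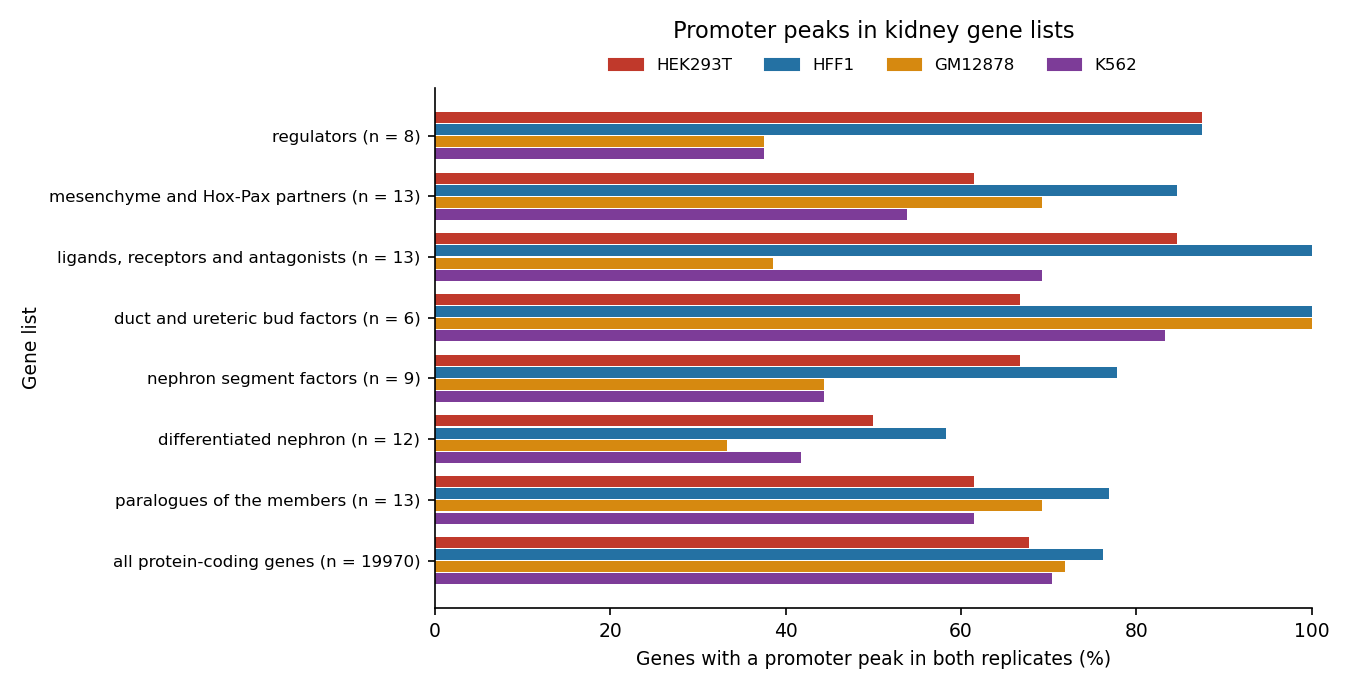
Share of genes with a promoter peak in both replicates (horizontal axis, percent) for the 8 regulators, 6 lists of other kidney genes and all protein-coding genes (rows), with 1 bar per cell line. The regulators reach 87.5% in HEK293T and HFF1 and 37.5% in GM12878 and K562, while all genes lie between 67.8% and 76.2% in the 4 lines.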

How the data were processed

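Bulk ATAC-seq peak lists of 8 human libraries were analysed, and the 2 mouse lists were not used here. The submitters' processing notes name cutadapt 3.2, Bowtie2 2.4.2, Picard and MACS2 2.2.7.1 and the builds hg38 and mm10; read shift, duplicate filter and calling options are not given in the sources used here. The authors deposited 1 list per library, unpooled, with a fold (linear ratio of summit over local background), a −log10 p and −log10 q, a score of 10 times the −log10 q, and the summit position. Deposited folds describe peaks within a list. They were not tested between lists and are shown side by side without scaling. Genes found in HEK293T alone were ranked by the lower of the 2 HEK293T libraries' highest promoter folds.

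Summit reads and background were recovered from fold and −log10 p by the Poisson tail. They count reads that may include PCR copies. Peaks from all libraries that overlapped by 1 bp were merged into regions. The peak-number test ran over all pairings of the 8 libraries; it and the recovery were tested on simulated data. Python 3.11.15, NumPy 2.4.6, pandas 2.3.3 and SciPy 1.17.1 were used.

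The members and lists were chosen with earlier results of these data known. All 8 members are named; other kidney genes are named if called in HEK293T alone, and otherwise up to 4 per list in list order, with exceptions named as absent from every library or chosen after their values were seen. The 5 genes most like LHX1 are those of closest lower fold. RefSeq promoter windows (GRCh38.p14) were matched for 4 of 8 members, SIX2, WT1, EMX2 and CITED1, and stretches outside exons are printed. The alternatives numbered 19, of which 8 left out a library. Values of some genes and motifs on the lists are not reported here.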

Additional observations from a re-analysis of the deposited data

How the results depend on the processing

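The members' promoter calls in HEK293T stayed within 1.5 times of 7 of 8 under every alternative run. With 20000 peaks per library, 2 members were called in HFF1, 0 in GM12878 and 1 in K562, 3 members (SALL1, EMX2 and CITED1) were found in HEK293T alone in place of LHX1, 9 pathway genes were found in HEK293T alone in place of 1, and 12 regions were called in HEK293T in place of 39. With libraries scaled to the HEK293T background level, 2 members (LHX1 and EMX2), 5 pathway genes and 7 regions were found in HEK293T alone. A promoter window of 2 kb left 0 members and 0 pathway genes in HEK293T alone. A window of 500 bp gave 2 such pathway genes, as did start sites of protein-coding transcripts. With canonical starts, chosen after seeing the data, 1 member was called in GM12878 and 3 pathway genes were found in HEK293T alone. Leaving out each library in turn gave 1 to 2 pathway genes in HEK293T alone (2 without K562 replicate 2) and 4 to 11 regions in HEK293T alone (11 without HEK293T replicate 1).

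The number of members whose peak number differed between lines, 3 in the reported test, was 0 with a replicate block (smallest adjusted p 0.115, pairing the libraries by number), 0 at 50 kb, 0 with 20000 peaks per library, 0 after scaling and 5 at −log10 q of 5 or more, and it ranged from 0 to 2 when a library was left out. The block allows 24 pairings and a smallest p of 0.0417, and 0 of all genes passed it; the numbers gave no sign of pairing, with correlations of replicate differences between lines from -0.0168 to 0.0133. Of 156 alternative values in all, 127 stayed within 1.5 times of the reported one and 29 moved, and the cause was not tested. HEK293T peaks rest on a median of 16 reads, so a site not listed there is not shown to be closed.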
